A study of Mus musculus with 2 samples.

Results

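The genes examined here are textbook STAT targets of other tissues: the fibrinogen chain genes Fga, Fgb and Fgg, the serum amyloid A genes Saa1 and Saa2 and the haptoglobin gene Hp of the liver, and the casein genes Csn1s1 and Csn2 of the mammary gland. These 8 members were chosen by name and are represented by 4 windows of the mm9 genome, which were chromosome 3 from 82780000 to 82880000 for the fibrinogen genes, chromosome 7 from 53950000 to 54050000 for Saa1 and Saa2, chromosome 8 from 112070000 to 112130000 for Hp, and chromosome 5 from 88060000 to 88220000 for Csn1s1 and Csn2. The windows held 3194 of 20784388 nuclear reads of a STAT3 chromatin immunoprecipitation sequencing library and 2458 of 17963766 nuclear reads of a STAT5 library. That the windows hold these genes was not checked against an mm9 annotation. Reads were counted by mm9 position, and members that share a window share its values.

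Both libraries came from wild type C57BL/6J mice, from naive CD4 T cells of spleen and lymph node that had been sorted by flow cytometry and cultured for 3 days on plate-bound CD3 antibody with CD28 antibody, TGF-beta (2 ng/ml) and IL-6 (20 ng/ml) to become T helper 17 cells in vitro. An antibody to IL-4 was present, and so, by the label, was one to IL-2, although its dose is given in IU/ml, a unit used for the cytokine itself. The cells were then given IL-6 at 40 ng/ml for 30 minutes before immunoprecipitation with a STAT3 antibody, or IL-2 at 200 IU/ml for 30 minutes before immunoprecipitation with a mixture of STAT5A and STAT5B antibodies. Antibody and cytokine differed together, and with 1 library per antibody a difference between them has no replicate check, while the effect of the antibody and that of the cytokine cannot be told apart. Neither an input nor an IgG library was analysed here, and the labelled cell type was not checked against marker genes, because the reads carry no gene names.

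STAT3 is activated downstream of IL-6 family receptors, and in hepatocytes it drives the acute-phase response, in which the liver raises the output of fibrinogen, serum amyloid A and haptoglobin. STAT5 is activated downstream of the prolactin receptor in mammary epithelium, where it drives milk protein genes, and downstream of the IL-2 receptor in T cells. Both factors bind as dimers to inverted repeats of the half-site TTC with a spacer of a few bases. Fga, Fgb and Fgg encode the chains of fibrinogen, the precursor of the clot protein fibrin. Saa1 and Saa2 encode lipoprotein-associated acute-phase proteins, Hp encodes the scavenger of free haemoglobin, and Csn1s1 and Csn2 encode alpha-S1 and beta casein of milk.

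Sequences just upstream of most members are shown because some carry the STAT half-site repeat and others do not. Those of Saa1 and Saa2 are also shown because they resemble each other closely enough to matter for short reads. RefSeq sequences on GRCm38 were matched for 7 of the 8 members, all but Hp. The 250 bases before the annotated start were searched on both strands for TTCNNNGAA and for the same TTC and GAA set 4 bases apart in place of 3, patterns that may overlap each other and read the same on either strand. The first was found upstream of 4 of the 7 members (Fga, Fgb, Csn1s1 and Csn2) against 7.02% of 32851 RefSeq upstream entries of the same length, and the second upstream of Csn2, against 5.85%. Neither pattern occurs in these bases of Fgg, Saa1 or Saa2. The sequence of Fgg was searched but is not printed below. Capitals mark the matches, sequences run 5′ to 3′ in the direction of the gene, and their GRCm38 positions cannot be set beside the mm9 positions of the reads.
Fga, chr3:83025903-83026152, plus strand: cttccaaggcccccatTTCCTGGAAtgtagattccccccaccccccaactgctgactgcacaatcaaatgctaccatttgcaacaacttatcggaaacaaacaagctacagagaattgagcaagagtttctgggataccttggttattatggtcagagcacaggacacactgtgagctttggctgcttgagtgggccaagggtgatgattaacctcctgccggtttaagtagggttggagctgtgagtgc
Fgb, chr3:83049864-83050113, minus strand: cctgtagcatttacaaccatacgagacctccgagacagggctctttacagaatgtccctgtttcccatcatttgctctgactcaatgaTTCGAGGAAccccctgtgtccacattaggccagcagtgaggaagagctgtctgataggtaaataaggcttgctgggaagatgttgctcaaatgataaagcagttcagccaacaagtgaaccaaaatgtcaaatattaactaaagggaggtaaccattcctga
Csn1s1, chr5:87665958-87666207, plus strand: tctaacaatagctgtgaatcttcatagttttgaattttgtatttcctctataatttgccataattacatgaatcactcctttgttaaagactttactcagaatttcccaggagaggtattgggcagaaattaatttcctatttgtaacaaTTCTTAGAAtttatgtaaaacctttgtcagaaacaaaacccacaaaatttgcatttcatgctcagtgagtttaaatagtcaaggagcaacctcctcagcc
Csn2, chr5:87699426-87699675, minus strand: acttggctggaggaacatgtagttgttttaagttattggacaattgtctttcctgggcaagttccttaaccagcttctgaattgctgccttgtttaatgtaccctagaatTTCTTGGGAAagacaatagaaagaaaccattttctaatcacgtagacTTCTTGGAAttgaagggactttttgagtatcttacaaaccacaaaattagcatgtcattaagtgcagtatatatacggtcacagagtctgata
Saa1, chr7:46742981-46743230, minus strand: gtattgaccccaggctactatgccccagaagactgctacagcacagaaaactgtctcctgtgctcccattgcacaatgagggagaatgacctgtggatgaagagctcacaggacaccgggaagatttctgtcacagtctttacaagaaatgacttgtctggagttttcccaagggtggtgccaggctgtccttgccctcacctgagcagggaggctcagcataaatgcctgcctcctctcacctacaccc
Saa2, chr7:46751583-46751832, plus strand: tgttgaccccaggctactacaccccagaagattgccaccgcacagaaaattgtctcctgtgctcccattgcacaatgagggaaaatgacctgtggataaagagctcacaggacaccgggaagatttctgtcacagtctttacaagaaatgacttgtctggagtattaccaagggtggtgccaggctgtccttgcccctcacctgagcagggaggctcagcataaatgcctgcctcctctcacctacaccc
The match in Fga began 234 bases before the start, that in Fgb 162, that in Csn1s1 100, and those in Csn2 140 and 93. The Saa1 and Saa2 stretches, aligned end to end, were identical at 94.8% of 251 aligned columns, and 86 of the 226 possible 25-base words of the Saa1 stretch (38.1%) also occurred in that of Saa2. A 25 nt read from such a word cannot be assigned to one of the genes. The same comparison gave no shared 25-base word, 0 of 226, between Fga and Fgb or between Csn1s1 and Csn2.

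A site was called where a 200 bp window held at least 5 reads, at least 4-fold more than the genome mean of that library and than its means over the surrounding 5 kb and 10 kb, at an adjusted exact 1-sided Poisson p of 1e-05 or below. The liver loci held 15 such sites, and the casein locus held 0 in either library. In the liver loci 9 regions were called with STAT3 and 14 with STAT5. Of the 15 sites 8 were called in both libraries, 1 with STAT3 alone and 6 with STAT5 alone, where over the 86150 sites of the genome these classes made up 47.7%, 18.2% and 34.1%. A median splits all regions of the genome evenly, and the numbers of sites above the median height were somewhat below an even split. Whether they depart from it was not tested. Their reads in 400 bp around the summit ran from 17 to 208 with STAT3, and 3 of the 9 exceeded the genome-wide median region of 51.0 reads. With STAT5 they ran from 23 to 126, and 6 of the 14 exceeded the median of 47.0.

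**Figure D1:**
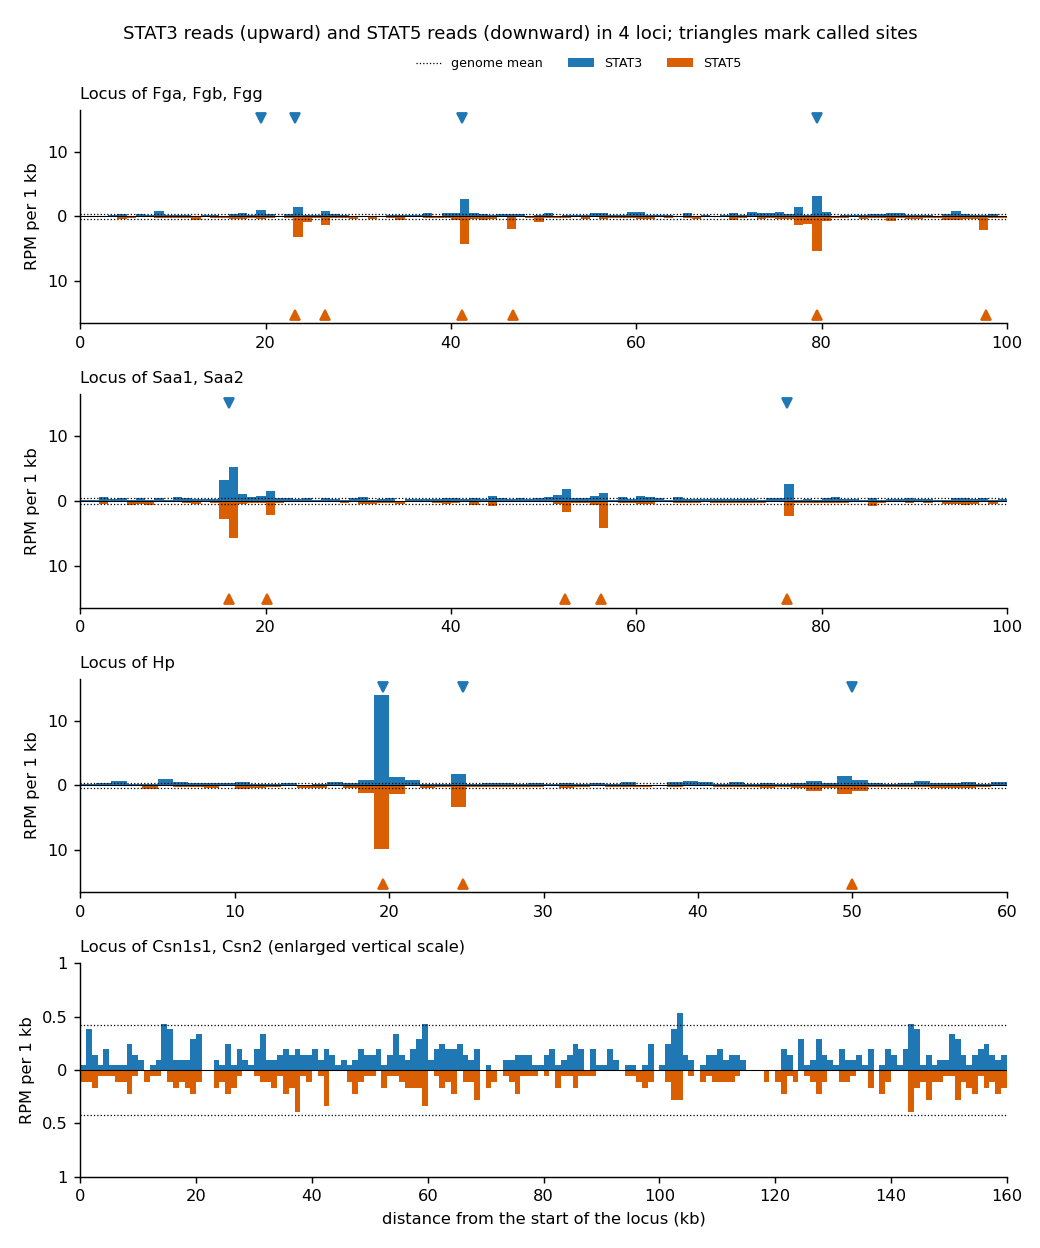
Reads scaled by the nuclear reads of each library (RPM) in 1 kb bins along each locus, STAT3 upward and STAT5 downward, against the distance from the start of the locus in kb; dotted lines are the genome means and triangles mark called sites. The liver loci show isolated tall bins, the highest at 19.6 kb in the Hp locus, while the casein locus, drawn on an enlarged scale, has at most 11 STAT3 and 7 STAT5 reads in any 1 kb bin and no triangle.

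Of the 200 bp windows laid every 50 bp over the 1 kb bins in which either library had a read, 0.502% were called with STAT3 and 0.652% with STAT5. The fibrinogen locus had 15 of 1937 such windows called with STAT3 (0.774%) and 33 with STAT5 (1.70%). The Saa locus had 12 (0.601%) and 25 (1.25%) of 1998, and the Hp locus 16 and 18 of 1198. At least 1 site was also found with STAT3 in 50.5% and with STAT5 in 54.6% of all 100 kb tiles of the genome, in 44.0% and 48.2% of 60 kb tiles and in 56.4% and 60.3% of 160 kb tiles, so the presence of a site in a window of this length is common.

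The fibrinogen locus held 7 sites. None of its 4 STAT3 regions and 2 of its 6 STAT5 regions exceeded the median region of the genome in reads. The 4 STAT3 and 6 STAT5 regions compare with a median of 1.00 region in 100 kb tiles with either antibody, and 27.0% of tiles had as many STAT3 regions or more and 21.8% as many STAT5 regions or more. The number depends on the call rule: with a minimum of 8-fold 1 STAT3 and 3 STAT5 regions were left, and under the strictest limit tried on the adjusted exact Poisson p 1 and 4. Its tallest STAT3 window lay on chromosome 3 from 82821051 to 82821250 and held 40 reads, 22.7-fold over the genome mean of 1.76 (adjusted exact Poisson p = 1.1e-24). Its tallest STAT5 window, from 82803051 to 82803250, held 46 reads, 30.2-fold over the mean of 1.52 (adjusted exact Poisson p = 1.4e-33).

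Sites of the fibrinogen locus differed in which antibody gave reads. The site from 82877501 to 82877850 had 34 STAT5 and 3 STAT3 reads in 400 bp, which is 13.1 times as many with STAT5 (exact 95% interval 4.12 to 66.7) once both were scaled by nuclear reads, as RPM. STAT3 there stood at 0.852 of the genome mean, so these reads do not rise above the background of that library. The site from 82826501 to 82826850 had 7 STAT3 against 28 STAT5 reads, or 4.63 times the RPM (1.98 to 12.6), which misses the limit of an interval wholly beyond 2-fold by little. The site from 82806201 to 82806500 had 23 STAT5 and 11 STAT3 reads (2.42, 1.13 to 5.50).

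In the 400 bp around the centre of each site, more STAT3 than STAT5 RPM was counted at 2 of the 7 sites. From 82799401 to 82799700, 17 reads were from STAT3 and 3 from STAT5, a ratio of STAT5 to STAT3 RPM of 0.204 (0.0383 to 0.706). This site was the lowest of the 9 STAT3 sites, only 3.56% of the STAT3 regions of the genome were as low or lower, and its interval was not wholly beyond 2-fold. Sites with both antibodies lay from 82802951 to 82803350 (22 STAT3 and 53 STAT5 reads, ratio 2.79, 1.67 to 4.81) and from 82859051 to 82859650 (36 and 52 reads, 1.67, 1.07 to 2.63). The other site with more STAT3, from 82820951 to 82821900, was also called with both antibodies, and the 400 bp around its STAT3 summit held 45 STAT3 and 26 STAT5 reads (0.668, 0.396 to 1.11; in 200 bp 0.463, 0.242 to 0.845). Its windows with most reads lay 450 bp apart. The 400 bp around its STAT5 summit held 42 STAT5 reads. In the 1 kb bin that began 41 kb into the locus, 55 STAT3 and 77 STAT5 reads were counted. Which antibody led at this site therefore depended on where reads were counted. That site is therefore wide, and the regions of the libraries overlap without sharing a summit.

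The Saa locus held 5 sites, all called with STAT5 and 2 of them with STAT3. As many STAT5 regions or more were found in 27.0% of 100 kb tiles, and as many STAT3 regions or more in 40.8%. With the genome-wide mean as the only background, 5 STAT3 regions were called, and with a minimum of 8-fold 3 STAT5 regions. The tallest had its summit in the same window in both libraries, on chromosome 7 from 53965951 to 53966150, where 109 STAT3 reads (61.9-fold over the genome mean, adjusted exact Poisson p = 4.7e-75) and 106 STAT5 reads (69.6-fold, adjusted exact Poisson p = 6.1e-83) were counted. Over 400 bp there were 139 from STAT3 and 126 from STAT5, and the RPM ratio was 1.05 (0.818 to 1.34). By RPM this was the most evenly shared of the 15 sites. The site from 54026051 to 54026500 also had its summit in 1 window for both libraries, with 54 STAT3 and 40 STAT5 reads (0.857, 0.555 to 1.31).

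The other 3 sites of the Saa locus were called with STAT5 alone, and at 1 of them the interval lay wholly beyond 2-fold. The site from 54005951 to 54006350 was covered by 73 reads from STAT5 and 23 from STAT3, and its RPM ratio was 3.67 (2.27 to 6.15). Nearby, from 54002151 to 54002500, 26 STAT5 and 24 STAT3 reads were counted (1.25, 0.692 to 2.28), and from 53969901 to 53970250 there were 36 and 27 (1.54, 0.911 to 2.64). The STAT3 reads at these sites stood at 6.53-fold, 6.81-fold and 7.66-fold over the genome mean. The best STAT3 windows at the first and the last of these lay just outside the threshold, with 16 reads (5.19-fold over the largest mean, adjusted exact Poisson p = 1.6e-05) and 22 reads (3.81-fold, 1.9e-05). Among the best windows of the called STAT3 sites, the one with fewest reads had 15 (7.28-fold, adjusted exact Poisson p = 5.9e-07).

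The Hp locus held 3 sites, each called with both antibodies, and 22.7% of 60 kb tiles had as many STAT3 regions or more and 27.8% as many STAT5 regions or more. The tallest, at 112089401 to 112090000 of chromosome 8, drew 208 STAT3 reads and 116 reads of STAT5 over 400 bp, an RPM ratio of 0.645 (0.510 to 0.814). With 208 reads it ranked 3274 among 56921 STAT3 regions, above or level with 94.2% of them, and its own STAT5 summit, 200 bp away, ranked 14345 among 70559. A site from 112094551 to 112094950 had 34 STAT3 and 54 STAT5 reads (1.84, 1.17 to 2.91), and one from 112119801 to 112120150 had 30 and 31 (1.20, 0.700 to 2.04). The first of these sites leaned to STAT3 and its neighbour to STAT5 on the RPM scale.

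Over the 15 sites, 2 were called more than 2-fold higher with STAT5 and 0 with STAT3, against 25.1% and 2.42% of all sites of the genome. Scaling the libraries by reads in 10 kb bins that held no region multiplies each ratio by 1.38, and 4 sites were then called higher with STAT5 and 0 with STAT3, against 32.5% and 0.781% of all sites on that scale. By RPM in 200 bp STAT5 led at 3 sites and STAT3 at 0, against 27.7% and 3.18%, and with an interval beyond 1.5-fold 4 and 0, against 31.6% and 5.72%. The median ratio was 1.54 over the 15 sites and 1.24 over the genome. STAT5 was higher than STAT3 in RPM at 11 of the 15, but the share of such sites over the genome was not computed. As the genome median lies above 1, a lead of STAT5 is the usual case there too. Sites called with STAT5 alone, 6 of the 15, were also centred on its summit. No more than counting error is covered by any of these intervals, and at most 800 reads can be counted in 400 bp, a limit that none of these sites approached.

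**Figure D2:**
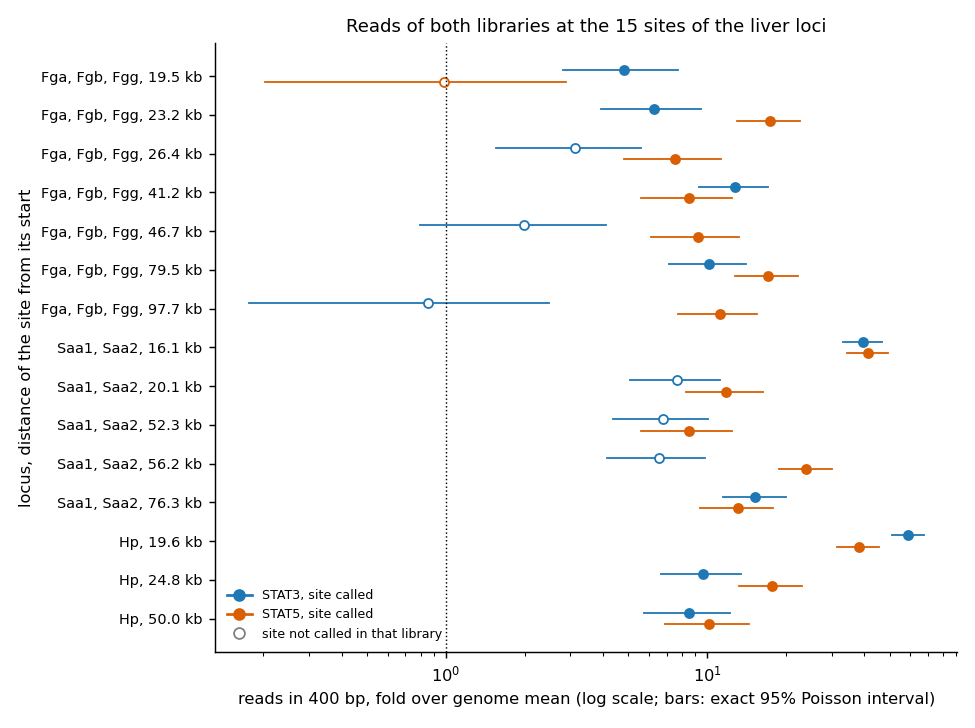
Reads in 400 bp around the 15 sites, as fold over the genome mean of each library on a log scale, with exact 95% Poisson intervals; each line is a site, named by its locus and its distance from the start of the locus, and open circles mark a library in which the site was not called. The sites at 16.1 kb in the Saa locus and 19.6 kb in the Hp locus stand apart on the right in both libraries, and the open STAT3 circle at 97.7 kb in the fibrinogen locus lies at 0.852.

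Reads at called sites fell on both strands, but regions with over 80% of summit reads on the same strand had been left out. Reads were counted at positions moved 50 bp in the 3′ direction, which by itself sets the 5′ ends of the strands apart. Whether the offset between strands came from sheared fragments was therefore not tested. The median 5′ end on the minus strand lay downstream of that on the plus strand by 50 to 120 bp at the 9 STAT3 sites (median 90) and by 73.5 to 145 bp at the 14 STAT5 sites (median 102). At the STAT3 reads of 2 sites not called with STAT3, from 82826501 and from 82877501 in the fibrinogen locus, the order was turned, at -40.5 and -18.5 bp on 7 and 3 reads. At the other sites not called with STAT3 the offset was 61.5, 76.5, 135 and 102 bp. The site not called with STAT5 had 142 bp on 3 STAT5 reads. The offset thus did not separate called from uncalled sites.

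Which gene a site belongs to was not resolved, because coordinates of genes on mm9 were not used here. In the RefSeq order on GRCm38, Fgg, Fga and Fgb lie side by side between Lrat, a retinol acyltransferase gene, and Plrg1, a splicing factor gene. Saa1 and Saa2 lie between Saa4 and Hps5, a gene of lysosome-related organelle assembly, with Saa3 beyond Saa4 and Gtf2h1, a subunit gene of the general transcription factor TFIIH, beyond Hps5. Hp lies between Txnl4b, with the splicing helicase gene Dhx38 beyond it, and Dhodh, a gene of pyrimidine synthesis. Csn1s1 and Csn2 lie between Sult1e1, an oestrogen sulfotransferase gene, and the casein gene Csn1s2a. Whether a site lies at a member or at one of these neighbours was not tested.

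Outside the called sites the liver loci carried reads at or moderately below the genome mean, which was 8.81 STAT3 and 7.61 STAT5 reads per kb. The fibrinogen locus had 7.46 STAT3 reads per kb, 0.848 of the mean (exact 95% Poisson interval 0.787 to 0.912), and 5.46 STAT5 reads per kb, 0.717 (0.656 to 0.782). The Saa locus had 0.990 (0.925 to 1.06) and 0.700 (0.641 to 0.762), and the Hp locus 1.00 (0.917 to 1.09) and 0.670 (0.596 to 0.750). The genome mean includes the reads in sites. Against the mean of reads outside called regions, 6.98 STAT3 and 4.91 STAT5 reads per kb, all 6 values were above 1, from 1.04 to 1.26. In each library these backgrounds lay in the upper part of genome tiles of the same length, at percentiles from 67.7 to 76.2.

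The casein locus differed from the liver loci in level as well as in sites. It had 450 STAT3 and 281 STAT5 reads in 160 kb. After removal of 12 of its 160 bins of 1 kb, in which no read of either library was placed, this was 3.04 STAT3 reads per kb, 0.345 of the genome mean (0.314 to 0.379), and 1.90 STAT5 reads per kb, 0.249 (0.221 to 0.280). These intervals lie below those of all 3 liver loci in the same library, and with all bins kept the values were 0.319 and 0.231. Such a level is not rare: 16.2% of 160 kb tiles had a lower STAT3 background and 18.0% a lower STAT5 background, and 43.6% and 39.7% of tiles likewise held no site.

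**Figure D3:**
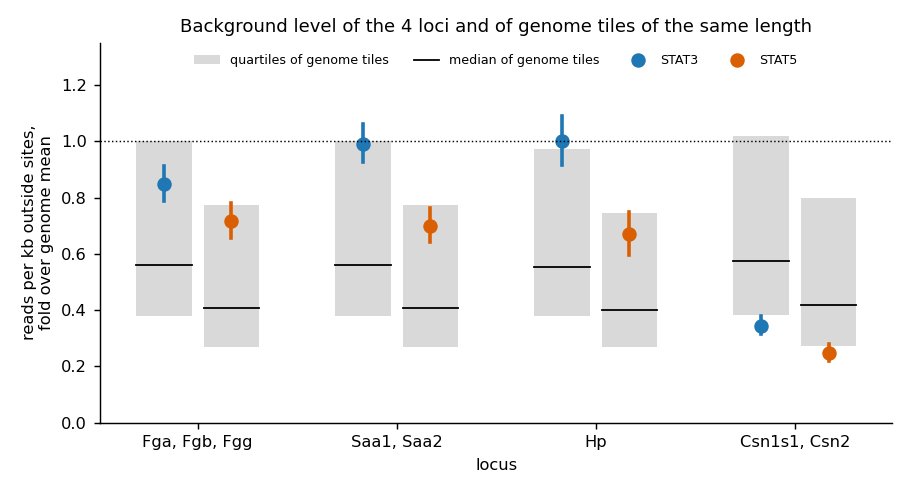
Reads per kb outside called sites as fold over the genome mean, for each locus and library, with exact 95% Poisson intervals; grey boxes and black lines give the quartiles and median of genome tiles of the same length. The liver loci lie above the tile medians in both libraries, and the casein locus lies below the lower quartile in both, at 0.345 with STAT3 and 0.249 with STAT5.

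No part of the casein locus stood out. The fullest STAT3 windows held 6 reads, first on chromosome 5 from 88119251 to 88119450, 3.41-fold over the genome mean (adjusted exact Poisson p = 0.323), and 7.40% of all windows with a read were as full. The fullest STAT5 windows held 5 reads, first from 88128401 to 88128600, 3.28-fold (adjusted exact Poisson p = 0.423), and 9.93% of windows were as full. Where the genome-wide mean sets the threshold, as it does here, a window needed 13 STAT3 or 12 STAT5 reads to be called. That is 7.38-fold and 7.88-fold over the mean. The background of the locus was 0.345 and 0.249 of that mean, so the fold needed over its own level was higher still. A weaker site at Csn1s1 or Csn2 was not detectable at this depth. Of 800 windows of 200 bp laid end to end, 495 (61.9%) held no STAT3 read and 584 (73.0%) no STAT5 read. The variance of the count per window was 1.28 and 1.23 times its mean, against 4.03 to 31.9 times in the liver loci with their sites included. How much of this comes from the sites was not tested.

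Along the casein locus the level stayed low in every 20 kb segment, from 0.238 to 0.403 of the genome mean with STAT3 and from 0.138 to 0.328 with STAT5. In the fibrinogen locus the same segments ran from 0.687 to 1.32 and from 0.453 to 1.42, in the Saa locus from 0.772 to 1.86 and from 0.749 to 1.58, and in the Hp locus from 1.09 to 2.59 and from 0.854 to 1.78. The upper ends of the last pair of loci are in the segments that hold their tallest sites. The longest stretch without a read of either library was 4103 bp in the casein locus, 3694 bp in the fibrinogen locus, 1197 bp in the Saa locus and 600 bp in the Hp locus.

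The low level went on far beyond the casein genes. The nearest STAT3 regions ended at 87246150 and began at 88898101, a span of 1652 kb, and the nearest STAT5 regions left a span of 1580 kb from 87269650 to 88849901. Spans without a region had a median of 11.3 kb with STAT3 and 9.70 kb with STAT5, and those around the casein genes ranked 203 among 55664 and 201 among 68867 on the autosomes. Reads were placed in 89.6% and 89.7% of the 1 kb bins of these spans. Within 500 kb of the middle of the locus, 49 of 50 bins of 20 kb lay under 0.5 of the genome mean with STAT3 and 50 of 50 with STAT5. Chromosome 5 as a whole stood at 0.997 and 0.956 of the genome mean.

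All 4 loci held more reads per kb than the median 20 kb bin of their surroundings, the casein locus by the least. A locus mean, sites included, is set here against a median, which a few tall bins do not raise. Single bins around the Saa locus reached 8.25 of the genome mean with STAT3 and 10.7 with STAT5. The Saa locus also lay below the median bin to its right. Whether each locus exceeds the mean of its surroundings was not computed. In the 20 kb bins within 500 kb of the middle of the fibrinogen locus but outside it, the median was 0.437 of the genome mean with STAT3 and 0.325 with STAT5, while all reads of the locus came to 0.941 and 1.06. Of the 7 STAT3 and 11 STAT5 regions in that 1000 kb, 4 and 6 lay in the 100 kb of the locus. All reads of the Saa locus came to 1.21 with STAT3 and 1.08 with STAT5 against surrounding medians of 0.886 and 0.690, and those of the Hp locus to 1.61 and 1.20 against 0.619 and 0.463. Those of the casein locus came to 0.319 and 0.231 against 0.278 and 0.197. Around the Saa and Hp loci the median bin to the right was fuller than that to the left. To the right of the Saa locus the median bin was 1.84 with STAT3 and 1.72 with STAT5, against 0.809 and 0.535 to its left, and for the Hp locus the medians were 1.08 and 0.762 to the right against 0.477 and 0.368 to the left. There were 41 STAT3 and 51 STAT5 regions within 500 kb of the middle of the Saa locus, 26 and 32 around Hp, and 0 and 0 around the casein genes.

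**Figure D4:**
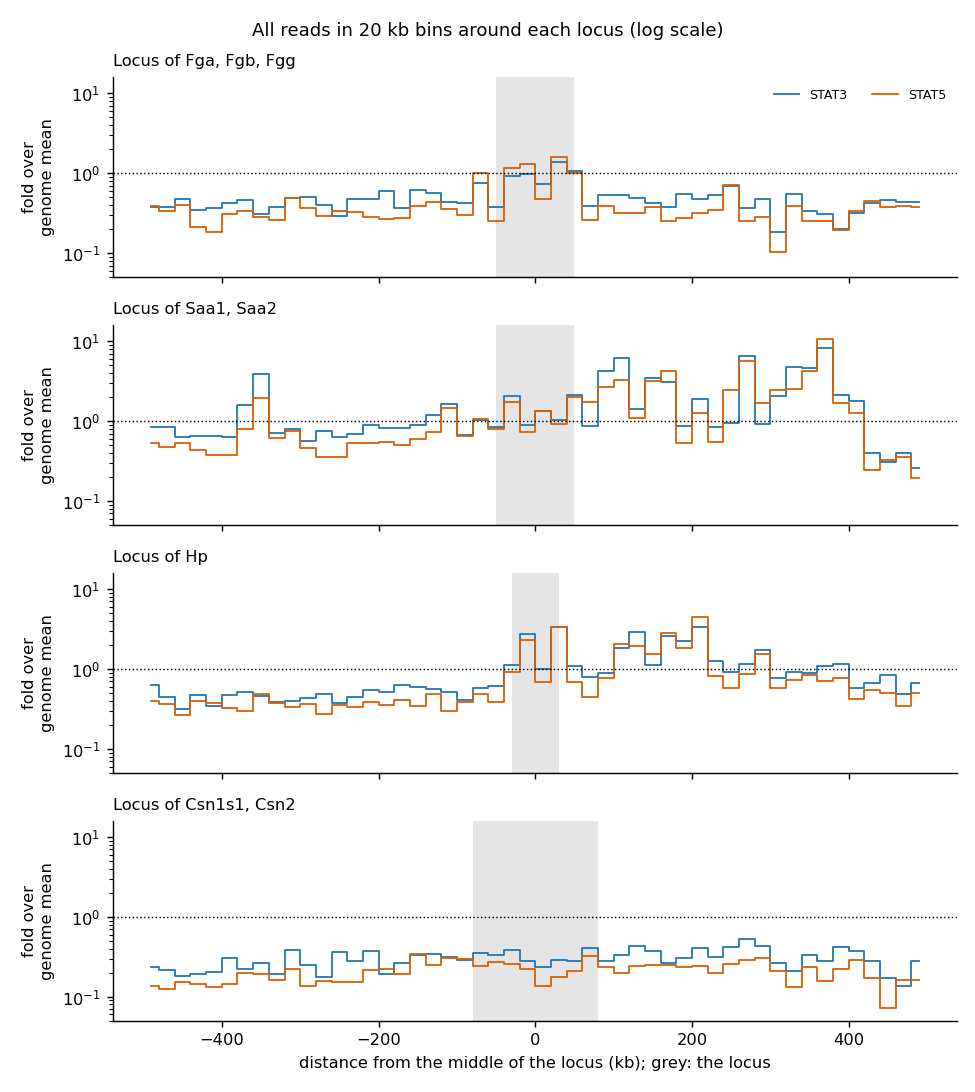
All reads in 20 kb bins within 500 kb of the middle of each locus, as fold over the genome mean on a log scale, STAT3 and STAT5 as separate lines and the locus in grey. The fibrinogen locus rises out of a low stretch, around the Saa and Hp loci the bins to the right are mostly fuller than those to the left, and around the casein genes the STAT5 line stays under 0.5 in all 50 bins.

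Over whole loci the ratio of STAT5 to STAT3 RPM was 1.12 for the fibrinogen locus (exact 95% interval 1.02 to 1.24), 0.897 for Saa (0.818 to 0.983), 0.744 for Hp (0.667 to 0.829) and 0.722 for casein (0.620 to 0.840). The direction for Saa and Hp depends on the scaling. By reads in bins without a region the ratios were 1.55, 1.24, 1.03 (0.922 to 1.15) and 1.000 (0.858 to 1.16). The bins that set this scale include those of the casein locus, which held no site. A ratio near 1 there follows largely from the scaling and is no result about that locus. The fibrinogen locus had more STAT5 on that scale, as it did by RPM. Outside the sites of either library its RPM ratio was 0.882 (0.784 to 0.991), so by RPM the lead was confined to its sites. On the scale of region-free bins the ratio outside sites was 1.22 (1.09 to 1.37).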

How the data were processed

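The deposited files list aligned reads of 25 nt, 1 line per read, with first and last base counted from 1, and the score the authors deposited is 0 in every line and was not used. Per the submitters' processing notes they are on mm9. For the aligner, its settings, and the step that left at most 1 read per position and strand, details were not given in the sources used here. Positions were moved 50 bp in the 3′ direction and counted in 200 bp windows every 50 bp over chromosomes 1 to 19, X and Y, with Python 3.11.15, numpy 2.4.6, scipy 1.17.1 and pandas 2.3.3, and drawn with matplotlib 3.10.9. Poisson p-values were adjusted by the Benjamini-Hochberg method over all windows with a read. Called windows within 100 bp were joined, and regions with over 80% of summit reads on 1 strand were left out (106 STAT3 and 184 STAT5). For the genome mean, reads were divided by the 2359993000 bp of 1 kb bins in which either library had a read, and tiles needed reads in at least 50% of their bins. Regions that overlapped by 1 bp or more became 1 site, centred on the summit with the higher RPM (reads scaled by nuclear reads). Intervals are exact (Poisson, or Clopper-Pearson for ratios) and cover counting error only. The caller was tested on simulated reads. The files held 20788823 STAT3 and 17968199 STAT5 reads. Members, windows and motifs were chosen with earlier results of these data known; all called sites of the windows are named, and no gene of like pattern could be, since reads carry no gene names.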

Additional observations from a re-analysis of the deposited data

How the results depend on the processing

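All alternatives were planned. No paired analysis was possible because there is 1 library per antibody, and for the same reason no library could be left out. The casein locus had 0 sites in both libraries under all 9 alternative call rules. Sites over the 4 loci numbered 17 with STAT3 at an adjusted p of 0.05, 14 with STAT3 with the genome-wide mean alone, and 9 with STAT5 at a minimum of 8-fold; under the other rules they stayed within 1.5 times, at 6 to 10 with STAT3 and 10 to 20 with STAT5. The background level moved beyond its interval as follows. Against the mean over the full span of the chromosomes it was fibrinogen 0.949 (STAT3) and 0.802 (STAT5), Saa 1.11 (STAT3) and 0.783 (STAT5), Hp 1.12 (STAT3), casein 0.386 (STAT3). Against the mean of reads outside called regions it was fibrinogen 1.07 (STAT3) and 1.11 (STAT5), Saa 1.25 (STAT3) and 1.08 (STAT5), Hp 1.26 (STAT3) and 1.04 (STAT5), casein 0.436 (STAT3) and 0.386 (STAT5). Against the mean of the own chromosome it was fibrinogen 0.952 (STAT3) and 0.795 (STAT5), Saa 0.904 (STAT3). With all reads of the locus, sites included, it was fibrinogen 0.941 (STAT3) and 1.06 (STAT5), Saa 1.21 (STAT3) and 1.08 (STAT5), Hp 1.61 (STAT3) and 1.20 (STAT5). With bounds 20 kb wider it was Saa 0.797 (STAT5), Hp 0.794 (STAT5). With bounds 10 kb narrower it was Saa 1.07 (STAT3). It stayed lowest in the casein locus under each of these. Scaling by region-free bins gave STAT5 to STAT3 ratios over the loci of 1.55 (fibrinogen), 1.24 (Saa), 1.03 (Hp) and 1.000 (casein), and 4 sites higher with STAT5, as did an interval beyond 1.5-fold, again 4. Counted in 200 bp, 3 sites were higher with STAT5. No site was called higher with STAT3, 0 of 15, under any of these. Beyond what each rule fixes, the cause was not tested.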
